A study of Rattus norvegicus with 5 samples.

Results

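The subunit genes of oxidative phosphorylation were followed in single cells of rat skin before and after irradiation. The set was chosen by symbol alone and used no measured value: every symbol of the deposited gene table that starts with Mt- (the 13 protein-coding genes of the mitochondrial genome) or that names a nuclear subunit of complexes I to V (symbols opening with Nduf and a subunit letter and number, with Uqcr, with Cox4 to Cox8 or with Atp5, and the 4 Sdh subunits). This gave 98 of 30017 symbols, 13 mitochondrial and 85 nuclear, on 101 of the 32623 gene rows. The rows of the 3 symbols with more than 1 row (Cox6b1, Ndufv3 and Uqcrb) were summed. By name, 38 of the nuclear members belong to complex I, 4 to complex II, 8 to complex III, 19 to complex IV and 16 to complex V, and the mitochondrial members divide into 7, 0, 1, 3 and 2.

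Oxidative phosphorylation makes most of the ATP of resting cells. Complex I (NADH dehydrogenase) and complex II (succinate dehydrogenase) pass electrons to ubiquinone, complex III passes them to cytochrome c, complex IV (cytochrome c oxidase) passes them to oxygen, and complex V (ATP synthase) uses the proton gradient built on the way. All complexes but II mix subunits made in the mitochondrion with subunits made in the cytosol, so their messages come from separate genomes, with the mitochondrial ones cut from long polycistronic transcripts.

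Skin of Sprague-Dawley (SD) rats was profiled in 5 droplet libraries. Control skin that was not irradiated gave 1 of them, and the other 4 sampled irradiated skin, each at its own time of 7, 14, 28 or 60 days (d). Per the study's methods the rats were male and 4 weeks old when purchased, and the buttock skin received a single dose of an electron beam. The age of the rats at irradiation and at sampling is not given there. Removal of dead cells before loading is described there for skin taken after upper blepharoplasty. Whether the rat samples were treated alike is not stated. No label states the dose, which the study's methods do give, or how many rats a library holds. The 60 d library is absent from the study's own account. With 1 library per group there was no test and no estimate of the spread between animals. Effects of irradiation cannot be told apart from those of the rat, its age when sampled, its dissociation or library making.

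The libraries held 70073362 to 139566348 unique molecular identifiers (UMIs, counts of single captured messages), and 42433 of 49507 barcodes were kept. Median depth was lower at 14 d and 28 d (4082 and 4108 UMIs per barcode) than in the other 3 libraries (7569 to 11650.5). More than 20% of UMIs were mitochondrial in 7.44%, 25.5%, 14.1% and 11.3% of barcodes of the 7, 14, 28 and 60 d libraries, against 6.4% in control, and these barcodes were removed. That limit acts on the mitochondrial members themselves, so their sums in keratinocytes are also given without it. Libraries shared 11 to 41 barcodes per pair, under 0.4% of either. A marker gate placed 38386 cells in classes, each of which stands for cells like that type. Levels are CPM, that is, UMIs scaled to the total UMIs of the class in a library, with exact Poisson 95% intervals, and ratios to control carry exact conditional binomial 95% intervals. Both cover counting error only. In cells gated as keratinocytes, 6 keratins took 29158 to 63398 CPM, against 696 to 3350 in cells gated as fibroblasts. Col1a1, Col3a1 and Dcn took 67887 to 83725 in fibroblasts. All these genes are markers used by the gate, so the values describe the gate and are no independent check of it. A class is reported where a library held at least 50 of its cells, which left 80 fibroblasts at 14 d and at least 643 fibroblasts or 1833 keratinocytes in every other library. These are 3′ tag counts, so levels are not compared between genes. Cell classes of a library come from the same suspension and are not replicates.

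The mitochondrial members took a larger share of messages at 28 d and 60 d than in control, in every class measured in both libraries. In keratinocytes, which build the epidermis and hair follicles, their summed level was 39184, 39441, 33857, 57588 and 60277 CPM over control and 7, 14, 28 and 60 d. The ratios to control were 1.01 for 7 d, 0.864 (0.862 to 0.866) for 14 d, 1.470 (1.467 to 1.472) for 28 d and 1.538 (1.536 to 1.541) for 60 d. In fibroblasts, which lay down the dermal matrix, the sum was 26308, 30144, 29404, 46209 and 47718 CPM over control and 7, 14, 28 and 60 d. The libraries of the later times stood apart from the other 3 in both classes. At 28 d the sum was higher than control in 8 of 8 classes, by 0.43 to 1.04 on the log2 scale (median 0.77), and at 60 d in 6 of 6, by 0.58 to 0.86 (median 0.67). At 7 d it was higher in 4 of 7 classes and at 14 d in 4 of 8. These counts of classes are with the limit on mitochondrial share, which removed 10.0% (control) to 17.6% (14 d) of mural cells. Without the limit on mitochondrial share, the log2 ratios in keratinocytes were 0.11, 0.03, 0.55 and 0.60 at 7, 14, 28 and 60 d, beside 0.01, −0.21, 0.56 and 0.62 with it, so the value below control at 14 d was not seen without the limit.

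**Figure D1:**
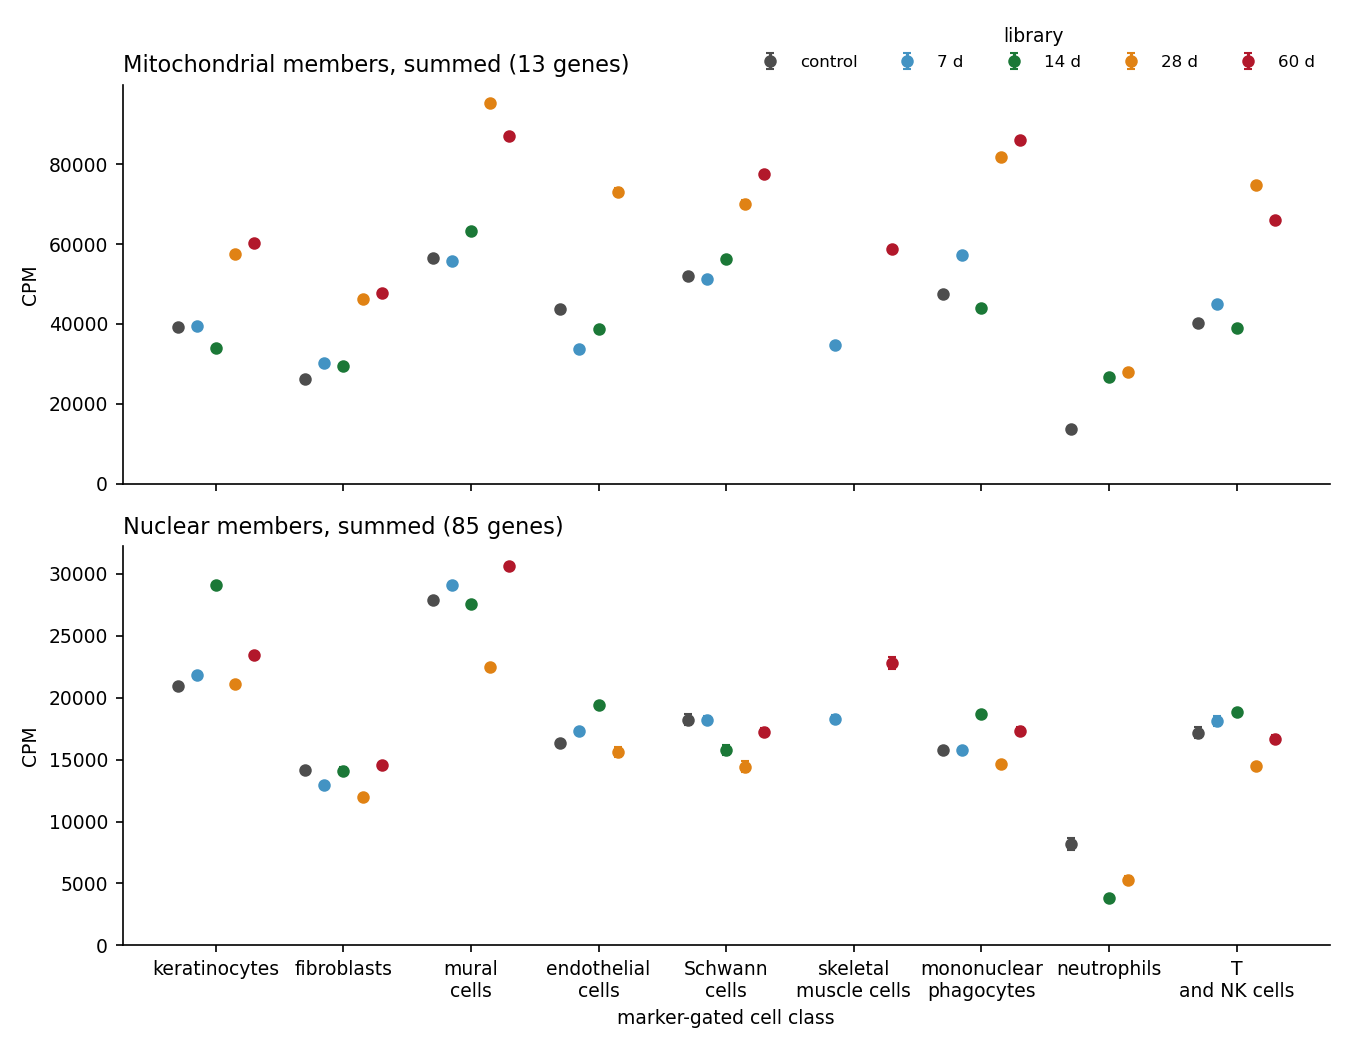
Summed level of the 13 mitochondrial members and of the 85 nuclear members, in CPM, by cell class for control and 7, 14, 28 and 60 d after irradiation. Each point is 1 class of 1 library, with an exact Poisson 95% interval that covers counting error only. The mitochondrial sums at 28 d and 60 d lie above control in every class that has a control point, while the nuclear sums do not move together with them.

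The higher sums of the later times were not shared by every group of fibroblasts. Clusters of all cells (Leiden clusters, built on variable genes that left out the members) split the fibroblasts of each library. Cluster 2 was shallow, with a median of 2088 UMIs per cell. It held 19.8%, 31.7% and 63.1% of the fibroblasts of 7, 28 and 60 d, against 13.1% in control. Within cluster 2 the mitochondrial sum was 78554 CPM at 7 d, 54062 at 28 d and 54094 at 60 d, against 57668 in control. Hence the sums of 28 d and 60 d lay below control there, by a log2 ratio of −0.09 at both times. In the other fibroblast clusters with at least 50 cells in both libraries the sums were higher, with log2 ratios of 0.71, 1.02, 0.75 and 0.44 at 28 d (clusters 3, 7, 9 and 15) and 0.85, 0.70 and 0.62 at 60 d (clusters 7, 9 and 15). In keratinocytes only cluster 6, led by genes that include the hair follicle keratin Krt71, had 50 cells in control and at a later time, and its sum was 64099 CPM at 28 d (53 cells) and 85353 at 60 d (117 cells), against 43201 in control. Keratins, which fibroblasts should lack, were at 3104 CPM in fibroblasts at 28 d and 3350 at 60 d, against 1010 in control. Whether these keratins came from free RNA or from cells captured together was not tested, nor was the part of either in the mitochondrial sums.

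Member by member, the difference at the later times was not shared by all 13. In keratinocytes 5 mitochondrial members were at least 1.5-fold higher than control at 28 d (10.3% of all 12325 genes measured were) and 6 at 60 d (9.0% of 12218 genes). A gene counts as measured where its mean level predicts at least 25 UMIs in the smaller of the libraries compared. In fibroblasts 10 of 13 were at least 1.5-fold higher at 28 d (23.8% of 7523 genes) and 10 at 60 d (26.6% of 8482 genes). Exactly 1 member, Mt-nd4l, was at least 1.5-fold lower at 28 d and at 60 d in each class (all genes in keratinocytes: 31.7% at 28 d and 30.6% at 60 d, and in fibroblasts: 11.2% and 12.1%). At 7 d no mitochondrial member passed 1.5-fold in either direction in either class, where 18.3% of 11543 genes were higher and 10.5% lower in keratinocytes and 15.2% of 11728 genes were higher and 6.91% lower in fibroblasts.

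Mt-atp8 and Mt-atp6 encode the mitochondrial subunits of ATP synthase, and their reading frames overlap on a shared message. Mt-atp8 was at 215, 248, 406, 648 and 394 CPM in keratinocytes over control and 7, 14, 28 and 60 d. In fibroblasts it was at 194, 227, 524, 691 and 413 CPM over the same series. Its level was thus highest at 28 d in both classes, with a ratio of 3.01 (2.95 to 3.07) in keratinocytes and 3.57 (3.40 to 3.73) in fibroblasts. It was above control in 7 of 7 classes at 14 d, 8 of 8 at 28 d and 6 of 6 at 60 d, with median log2 ratios of 1.16, 1.73 and 1.07. Mt-atp6 was at 5858, 6384, 5320, 10984 and 10596 CPM in keratinocytes, so it did not share the difference at 14 d.

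Mt-nd4l and Mt-nd4, subunits of complex I, also overlap on a shared message and lay on opposite sides of control at 28 d and 60 d. Mt-nd4l was at 308, 265, 142, 100 and 101 CPM in keratinocytes over control and 7, 14, 28 and 60 d, and at 202, 217, 163, 117 and 129 CPM in fibroblasts. Its ratio in keratinocytes was 0.324 (0.315 to 0.334) at 28 d and 0.329 (0.322 to 0.337) at 60 d. It was lower in 7 of 7 classes at 14 d, 7 of 7 at 28 d and 6 of 6 at 60 d, with median log2 ratios of −0.59, −1.20 and −1.25. Mt-nd4 was at 3265, 3347, 2153, 4653 and 4213 CPM in keratinocytes. It was thus higher than control at 28 d and 60 d, when Mt-nd4l was lower, but at 14 d both were below control. How the counting divided reads between overlapping genes is not given in the sources used here, so values of these 4 members are uncertain.

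Among the other mitochondrial members, Mt-atp6, Mt-co3 (complex IV) and Mt-nd2 (complex I) had median log2 ratios over classes of 1.14, 1.05 and 1.07 at 28 d and 1.01, 1.01 and 1.0 at 60 d. Mt-co1, the catalytic subunit of complex IV, moved less, with levels of 4748, 4480, 5122, 5370 and 6175 CPM in keratinocytes over control, 7, 14, 28 and 60 d. It was above control in 7 of 8 classes at 28 d (median 0.23) and 6 of 6 at 60 d (median 0.36). Mt-co2, Mt-cyb (complex III), Mt-nd1, Mt-nd3 and Mt-nd5 lay between these, with medians of 0.53 to 0.80 at 28 d and 0.45 to 0.77 at 60 d. Mt-nd6, the only member on the other strand, was at 20.2 to 50.2 CPM in these classes and had a median of −0.10 at 60 d, where 3 of 4 classes lay below control. Its reads cannot be told apart from those of its antisense partner if strand was not used in counting. At 14 d 1 member was at least 1.5-fold higher in keratinocytes (13.4% of 12059 genes) and 2, Mt-nd4 and Mt-nd4l, were lower (46.8% of genes), and in fibroblasts 1 of 12 measured was higher (14.3% of 2533 genes) and 0 were lower (18.8%).

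**Figure D2:**
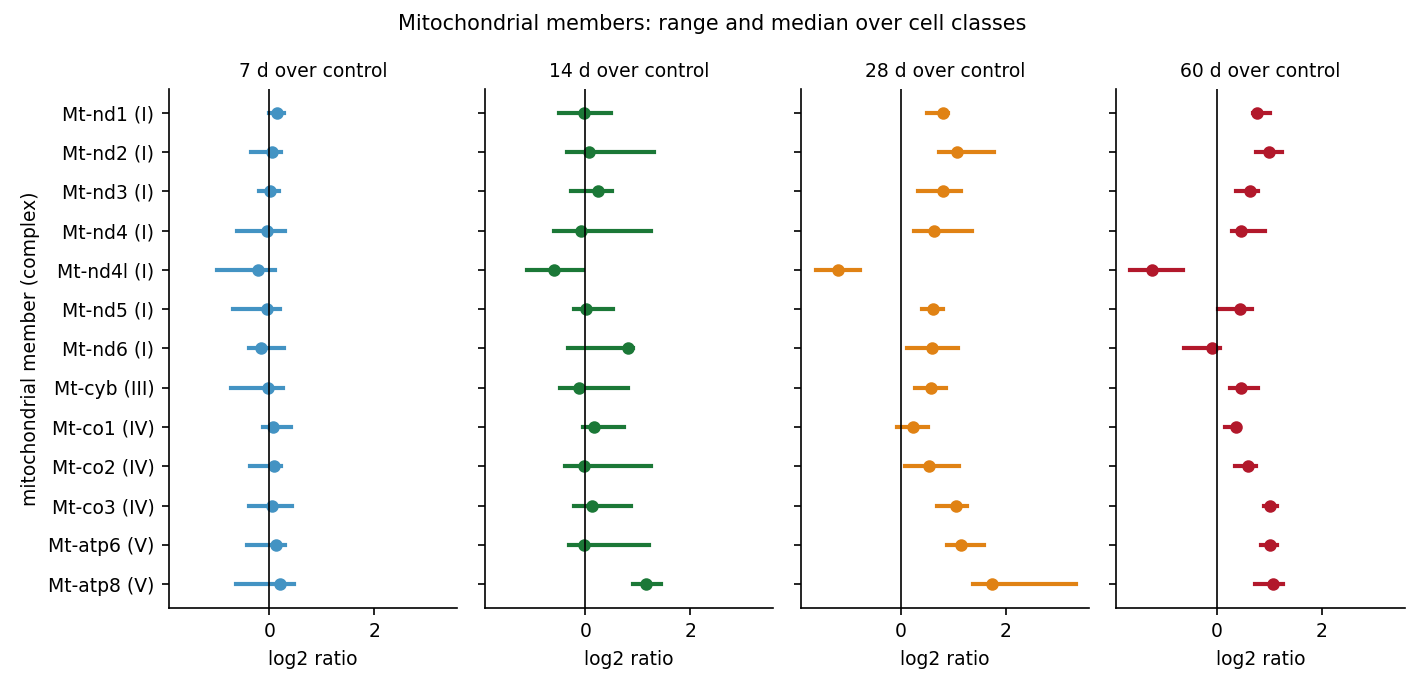
Log2 ratio of each of the 13 mitochondrial members to control at 7, 14, 28 and 60 d, with the complex in brackets. Points are medians over the classes where the member was measured and bars run to the lowest and highest class, so the bars of Mt-nd4l lie wholly below 0 and those of Mt-atp8 wholly above 0 at 28 d and 60 d.

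The nuclear members followed another course, with their highest sum in keratinocytes at 14 d. In keratinocytes the 85 members summed to 20970, 21831, 29145, 21080 and 23477 CPM over control and 7, 14, 28 and 60 d. The ratio at 14 d was 1.390 (1.387 to 1.393), and the other 3 libraries lay between 1.01 and 1.12. The difference at 14 d was present in basal keratinocytes (30291 CPM at 14 d against 20877 in control) and in suprabasal ones (28028 against 21291). In fibroblasts the sum was 14139, 12964, 14114, 11994 and 14579 CPM over control and 7, 14, 28 and 60 d, so no irradiated library passed a ratio of 1.03 (1.02 to 1.04). At 28 d the nuclear sum was below control in 7 of 8 classes, among them mural cells (22467 against 27873 CPM). Keratinocytes of the 14 d library also had the highest median depth, 24579 UMIs per cell against 10676 in control, and 68.5% of them lay in cluster 14, led by S100a8 and S100a9. In that cluster, and in clusters 20 and 21 of the same library, the nuclear sums were 30043, 27268 and 24542 CPM. Whether depth or cluster plays a part was not tested.

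Of the 85 nuclear members, 75 were measured in keratinocytes. The other 10 had 370 UMIs or fewer each over all libraries. Ndufa1, Cox7a1, Cox8c and Cox6c-ps1 were listed at 0 in every library, and Atp5pb, Ndufs6, Ndufa10l1 and Cox7b2 had 6 to 125 UMIs. Ndufa1, Ndufs6 and Atp5pb encode core or structural subunits used by most cells, so a value at or near 0 here says nothing of their absence. The remaining 2, Cox6a2 and Cox8b, are the heart and skeletal muscle forms of complex IV subunits and are described with the isoforms.

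At 14 d 25 of 75 nuclear members were at least 1.5-fold higher in keratinocytes and 2 were lower, where 13.4% of all genes measured were higher and 46.8% lower, and the median log2 ratio of the members was 0.43 beside −0.50 over all genes. At 7 d 1 was higher and 2 were lower (18.3% and 10.5% of all genes, and a median of 0.08 beside 0.13). At 28 d 2 were higher and 5 lower (10.3% and 31.7% of all genes, −0.02 beside −0.25), and at 60 d 3 and 3 (9.0% and 30.6%, 0.17 beside −0.20). Because the median gene lies below 0 at the 3 later times, scaling each comparison to its median gene gave 61 members higher at 14 d, 15 at 28 d and 18 at 60 d. In fibroblasts 0 were higher and 0 lower at 7 d (15.2% and 6.91% of all genes), and 7 and 3 of 68 at 14 d (14.3% and 18.8%). The counts were 5 and 7 of 74 at 28 d (23.8% and 11.2%) and 8 and 1 of 75 at 60 d (26.6% and 12.1%), so in fibroblasts neither direction exceeded its share of all genes at any time. The fibroblast medians were −0.08, 0.00, −0.14 and 0.16, beside 0.11, −0.08, 0.15 and 0.21 over all genes. Scaled to the median gene, 18 were lower at 28 d and 6 at 60 d in fibroblasts.

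**Figure D3:**
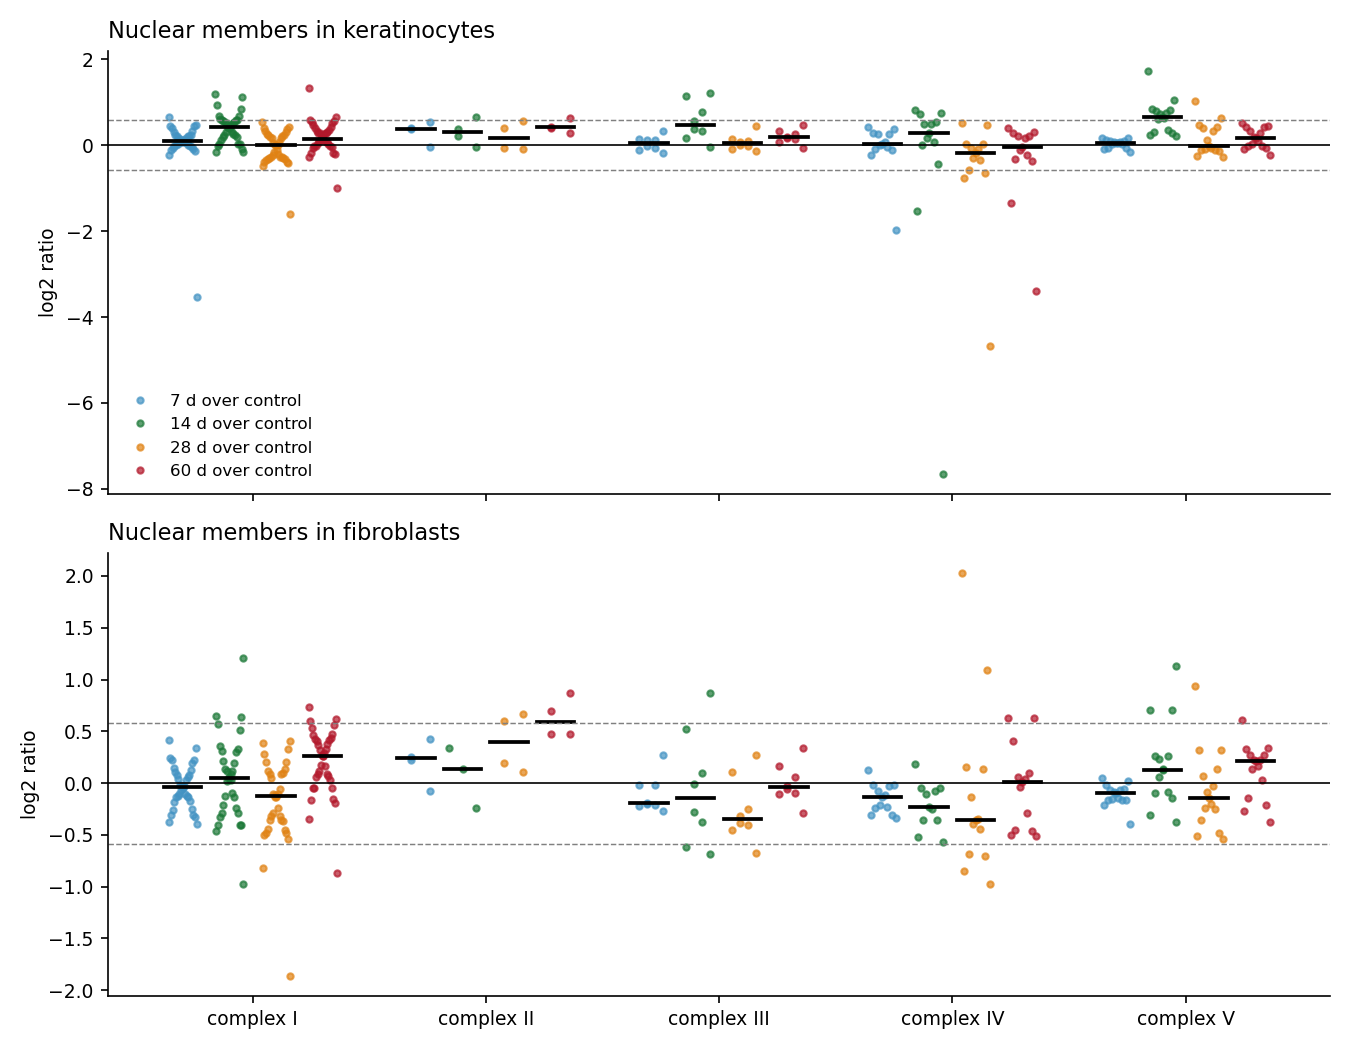
Log2 ratio to control of every nuclear member measured, by complex, in keratinocytes and fibroblasts at 7, 14, 28 and 60 d. Each point is 1 gene, the black bars are medians, the dashed lines mark 1.5-fold in each direction, and the vertical scales differ between the panels. At 14 d all 15 measured members of complex V lie above 0 in keratinocytes.

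Complex V stood highest among the complexes in keratinocytes at 14 d. All 15 of its measured nuclear members lay above control, 10 of them by at least 1.5-fold (13.4% of all genes), with a median log2 ratio of 0.66 beside −0.50 over all genes. Atp5me, subunit e of the membrane part of ATP synthase, was at 127, 143, 420, 259 and 182 CPM over control and 7, 14, 28 and 60 d. In fibroblasts it was at 70.9, 71.8, 156, 136 and 108 CPM. It was the member with the highest ratio in keratinocytes at 14 d, 3.31 (3.23 to 3.40), and it exceeded control in 7 of 7 classes at 7, 14 and 28 d and in 6 of 6 at 60 d. Atp5f1b, the catalytic β subunit, was at 532, 510, 891, 822 and 718 CPM in keratinocytes and at 289, 272, 472, 361 and 365 CPM in fibroblasts. The rotor ring of ATP synthase is built of subunit c, for which Atp5mc1, Atp5mc2 and Atp5mc3 encode the same mature protein. Atp5mc1 was at 468, 485, 967, 648 and 628 CPM in keratinocytes, a ratio of 2.06 (2.04 to 2.09) at 14 d, while Atp5mc2 was at 753, 675, 913, 740 and 806 CPM. Atp5mg, subunit g, had the highest tag count of complex V over all kept control cells. In keratinocytes it was at 710, 720, 904, 595 and 697 CPM. The list held 1 inhibitor, Atp5if1, which blocks the reverse reaction of ATP synthase. Atp5if1 was at 690, 651, 854, 570 and 591 CPM in keratinocytes, at 375, 285, 351, 258 and 289 CPM in fibroblasts, and below control in 8 of 8 classes at 28 d (median −0.42).

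Complex III had 3 of 8 members at least 1.5-fold higher in keratinocytes at 14 d, against 13.4% of all genes. Uqcrq, a small subunit near the ubiquinone site, was at 267, 337, 619, 293 and 293 CPM over control and 7, 14, 28 and 60 d, a ratio of 2.32 (2.28 to 2.36) at 14 d. It was above control at 14 d in 7 of 7 classes, with a median log2 ratio of 0.67. The other libraries lay within 1.26-fold of control. Uqcrc1, a core subunit, was at 156, 171, 266, 213 and 214 CPM in keratinocytes. Uqcrh, the hinge subunit, had the highest tag count of the complex over all kept control cells. In keratinocytes Uqcrh was at 596, 526, 747, 640 and 749 CPM. In fibroblasts Uqcrfs1, the Rieske iron-sulfur subunit, was at 83.5, 71.9, 51.9, 52.3 and 77.7 CPM, at least 1.5-fold lower at 14 d and 28 d.

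Complex I had 8 of 35 members at least 1.5-fold higher in keratinocytes at 14 d (13.4% of all genes), with a median log2 ratio of 0.41 over the 35. Ndufa3 and Ndufb7, accessory subunits of its membrane arm, led these. Ndufa3 was at 49.0, 50.2, 112, 61.6 and 52.2 CPM in keratinocytes over control and 7, 14, 28 and 60 d, and in fibroblasts at 35.3, 38.1, 81.3, 44.4 and 47.8 CPM. The ratio at 14 d was 2.29 (2.19 to 2.40) in keratinocytes and 2.30 (1.68 to 3.08) in fibroblasts, the last from 47 UMIs. Ndufb7 was at 164, 228, 355, 193 and 215 CPM in keratinocytes and above control at 14 d in 7 of 7 classes. Of the nuclear members of complex I measured, Ndufc1, another accessory subunit, had the lowest ratio at 28 d and at 60 d in both classes. Ndufc1 was at 76.1, 70.3, 71.3, 24.9 and 38.0 CPM in keratinocytes, a ratio of 0.327 (0.309 to 0.346) at 28 d. In fibroblasts it was at 41.0, 33.2, 15.6 (9 UMIs), 11.3 and 22.5 CPM, with a ratio of 0.276 (0.196 to 0.377) at 28 d, and 4 of 4 classes measured lay below control at that time (median −1.74).

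Complex II, the only complex with no mitochondrial subunit, was above control at the later times in fibroblasts. Its medians there were 0.24, 0.13, 0.40 and 0.59 on the log2 scale at 7, 14, 28 and 60 d, beside 0.11, −0.08, 0.15 and 0.21 over all genes. At 28 d and at 60 d 2 of its 4 members were at least 1.5-fold higher, where 23.8% and 26.6% of all genes were, so a count over 4 genes says little here. Sdha, the flavoprotein subunit that oxidises succinate, was at 26.1, 35.0, 36.3, 39.6 and 47.8 CPM in fibroblasts over control and 7, 14, 28 and 60 d, a ratio of 1.83 (1.59 to 2.11) at 60 d. Sdhc, a membrane anchor, was at 42.6, 49.9, 46.7, 67.6 and 68.9 CPM in fibroblasts and at 43.2, 62.3, 68.4, 64.1 and 66.3 CPM in keratinocytes. All 4 irradiated libraries were above control for both genes in both classes by value, but at 14 d the fibroblast intervals of the ratio, 0.859 to 2.14 for Sdha and 0.719 to 1.60 for Sdhc, included 1. Sdhb and Sdhd, the 2 most abundant members by tag count in control, differed less, with fibroblast levels of 65.6, 78.3, 83.0, 74.9 and 91.4 CPM for Sdhb and 55.2, 52.2, 46.7, 59.4 and 77.0 CPM for Sdhd.

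Members of complex IV lay on both sides of control. In keratinocytes at 14 d 3 of its 13 measured members were at least 1.5-fold higher (13.4% of all genes), among them the ubiquitous form Cox6a1 (441, 540, 772, 634 and 579 CPM over the series), and 2 were lower (46.8% of all genes), both isoforms described in the next paragraphs. At 28 d 4 of 13 were lower in each class, which in keratinocytes is close to the share of all genes (31.7%) and in fibroblasts above it (11.2%). Cox6b1, a subunit that links the monomers of the enzyme, was at 353, 362, 509, 235 and 283 CPM in keratinocytes and at 210.5, 170, 176, 107 and 148 CPM in fibroblasts. At 28 d Cox6b1 was below control in 7 of 7 classes with a median log2 ratio of −0.96. Cox7a2l2 was at 552, 535, 582, 351 and 426 CPM in keratinocytes and at 364, 310, 310, 202 and 265 CPM in fibroblasts. Cox4i1 and Cox8a were the 2 most abundant nuclear members by tag count over all kept control cells. Both were also below control in 8 of 8 classes at 28 d, with smaller medians of −0.31 and −0.46. Cox7a2l, which joins complex III and complex IV into supercomplexes, was below control in 7 of 7 classes at 14 d (median −0.45) and above it in 6 of 6 at 60 d (median 0.13).

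Members were also read over all classes, counting those that lay on the same side of control in every class measured, with at least 4 classes. At 28 d 11 of 13 mitochondrial members were above control in every class and 1 below, and 6 of 71 nuclear ones were above and 20 below, where 11.6% of all 4597 genes so measured were above and 16.6% below. At 60 d the counts were 11 and 1 of 13 mitochondrial members, and 22 and 6 of 67 nuclear ones (12.5% above and 23.8% below of 2998 genes). At 14 d they were 1 and 1 of 13, and 14 and 5 of 71 (7.51% and 15.1% of 3474 genes). At 7 d they were 0 and 0 of 13, and 9 and 1 of 73, with 9 of 73 close to the share of all genes (12.7% above and 7.40% below of 5069). The 9 at 7 d included Atp5me, Sdhb, Sdhc and Uqcrc1. The sum of the mitochondrial members over the sum of the nuclear ones was 1.87, 1.81, 1.16, 2.73 and 2.57 in keratinocytes over control and 7, 14, 28 and 60 d. In fibroblasts it was 1.86, 2.33, 2.08, 3.85 and 3.27. Neutrophils, which depend mostly on glycolysis, had 7.08 at 14 d and 5.27 at 28 d against 1.67 in control, from 142, 211 and 71 cells. Their nuclear sums were 3786 CPM at 14 d and 5312 at 28 d against 8164 in control, and their mitochondrial sums 26804 and 27994 against 13626. Keratins were at 4015 and 9196 CPM in these cells against 2398 in control. The part of free RNA or of cells captured together was not tested. Mural cells, the pericytes and smooth muscle around vessels, had the highest nuclear sum of the classes in control and at 7, 28 and 60 d, and keratinocytes at 14 d. Across 7 or 8 classes of a library, mitochondrial and nuclear sums had Pearson correlations of 0.38 to 0.82, given as a description since the classes share a library.

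Nuclear respiratory factor 1 (NRF1) and ETS factors such as GABPA are known regulators of many nuclear subunit genes. Their own messages were lower in keratinocytes at 14 d by value. Gabpa was at 16.2 CPM against 30.3 in control, and Nrf1 at 8.43 against 12.0. These are log2 ratios of −0.90 and −0.51, beside a median of −0.50 over all genes. In this comparison 46.8% of all genes were at least 1.5-fold lower, so Nrf1 lay close to the median gene. Promoters are shown for the measured member with the highest ratio at 14 d in keratinocytes in each of complexes V, III and I (Atp5me, Uqcrq and Ndufa3) and for the next of complex I (Ndufb7). They are the 300 bases from 250 before to 50 after the start of the RefSeq gene on build GRCr8, which is not the build of the counts (Rnor_6.0), and 73 of 85 nuclear members had one. Capitals mark matches, on either strand, to GCGCATGC (NRF1) or to CCGGAAG (ETS). Atp5me (chr14:1464610-1464909, + strand) holds an NRF1 match on both strands of an overlapping palindrome and an ETS match, and Uqcrq (chr10:38089929-38090228, − strand) and Ndufb7 (chr19:41477242-41477541, − strand) hold an ETS match each. Ndufa3 (chr1:74515509-74515808, − strand) holds neither, nor do the promoters of Atp5mc1 and Uqcr10, which were also at least 1.5-fold higher at 14 d.
Atp5me: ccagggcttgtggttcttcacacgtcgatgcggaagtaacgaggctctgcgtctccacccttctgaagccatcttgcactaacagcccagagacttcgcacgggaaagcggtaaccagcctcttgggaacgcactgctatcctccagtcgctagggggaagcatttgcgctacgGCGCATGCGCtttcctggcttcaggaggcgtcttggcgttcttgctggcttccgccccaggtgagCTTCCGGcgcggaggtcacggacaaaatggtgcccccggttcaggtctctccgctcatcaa
Uqcrq: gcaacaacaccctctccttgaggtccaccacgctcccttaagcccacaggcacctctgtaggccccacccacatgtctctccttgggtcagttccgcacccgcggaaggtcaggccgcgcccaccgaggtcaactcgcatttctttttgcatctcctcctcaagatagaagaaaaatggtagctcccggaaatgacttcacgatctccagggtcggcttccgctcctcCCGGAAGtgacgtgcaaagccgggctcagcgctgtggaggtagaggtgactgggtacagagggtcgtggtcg
Ndufa3: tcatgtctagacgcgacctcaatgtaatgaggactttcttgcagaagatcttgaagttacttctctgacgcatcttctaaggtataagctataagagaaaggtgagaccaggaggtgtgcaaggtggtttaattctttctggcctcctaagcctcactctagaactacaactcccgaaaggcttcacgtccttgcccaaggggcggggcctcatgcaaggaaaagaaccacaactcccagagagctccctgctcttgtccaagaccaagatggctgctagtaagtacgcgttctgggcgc
Ndufb7: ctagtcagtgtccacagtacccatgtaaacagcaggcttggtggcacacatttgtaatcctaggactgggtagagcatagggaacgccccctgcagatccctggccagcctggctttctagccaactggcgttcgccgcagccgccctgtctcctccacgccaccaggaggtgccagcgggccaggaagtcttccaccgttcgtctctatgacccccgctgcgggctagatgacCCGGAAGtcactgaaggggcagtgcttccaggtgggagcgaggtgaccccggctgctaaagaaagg
A match to GCGCATGC was present in 9 of the 73 member promoters (12.3%), against 731 of all 27457 promoters of the same length (2.66%), and a match to CCGGAAG in 19 (26.0%), against 2531 (9.22%). Of the 25 members at least 1.5-fold higher at 14 d in keratinocytes, 21 had a promoter, 3 with the NRF1 letters and 5 with the ETS letters. A match is a description of the letters and not a binding site.

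Some subunits have paralogs tied to a tissue or condition. Ndufa4l2, a paralog of Ndufa4 known in human and mouse cells as a hypoxia-inducible brake on mitochondrial respiration, was at 269, 23.3, 273, 363 and 681 CPM in keratinocytes over control and 7, 14, 28 and 60 d. The ratio to control was 0.0866 (0.0801 to 0.0935) at 7 d and 2.53 (2.49 to 2.57) at 60 d, with 14 d within counting error of control at 1.02 (0.993 to 1.04). Mural cells had 527, 558, 374, 546 and 506 CPM and fibroblasts 97.2, 88.7, 125, 129 and 122 CPM, and no other class passed 41.6 CPM in any library. Ndufa4, named for complex I and known to reside in complex IV, was at 390, 610, 629, 338 and 321 CPM in keratinocytes and at 363, 289, 273, 259 and 326 CPM in fibroblasts. Thus at 7 d the pair differed from control in opposite directions in keratinocytes, and Ndufa4 was 1.56-fold higher (1.53 to 1.59). At 28 d Ndufa4 was below control in 7 of 7 classes (median −0.67).

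The level of Ndufa4l2 differed between keratinocyte clusters by more than it did between libraries. In control it was 620 CPM (610 to 630) in cluster 8, led by Ly6d, Krt1 and Krt10 among others, and 38.1, 12.9 and 11.3 CPM in clusters 4, 5 and 6. Cluster 8 held 27.7% of control keratinocytes, and 99.2% of its cells came from the control library. At 7 d 94.5% of keratinocytes lay in cluster 5, led by Krt15. Within cluster 5 Ndufa4l2 was at 21.7 CPM at 7 d against 12.9 in control, a ratio of 1.68 (1.37 to 2.07), opposite in direction to the whole class. Ndufa4 was at 565 CPM at 7 d against 217 in control in the same cluster, a ratio of 2.60 (2.48 to 2.73). At 60 d Ndufa4l2 was at 800, 943 and 867 CPM in clusters 19, 20 and 21 and at 111 CPM in cluster 29, and at 28 d at 461, 412, 394 and 102 CPM in the same 4 clusters. Most keratinocyte clusters belong largely to 1 library, so cluster and library cannot be told apart.

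**Figure D4:**
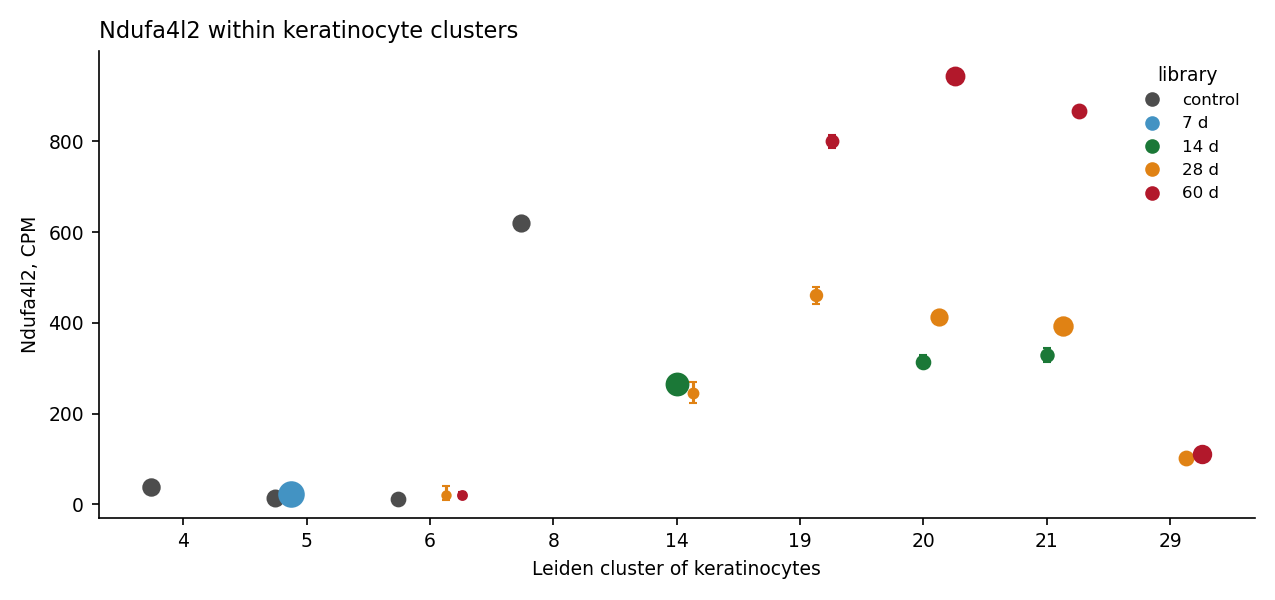
Level of Ndufa4l2 in CPM in each keratinocyte cluster with at least 50 cells of a library, by library, with exact Poisson 95% intervals that cover counting error only. Larger points hold a larger share of the keratinocytes of their library. Within control the clusters range between 11.3 and 620 CPM, and the 7 d library has a single point, cluster 5 at 21.7 CPM.

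Cox4i2, a form of complex IV subunit 4 known from lung and oxygen sensing, was highest in mural cells among the classes in every library. Mural cells had 898, 863, 534, 639 and 652 CPM over control and 7, 14, 28 and 60 d, so that the 14, 28 and 60 d libraries lay below control and 7 d. Clusters 10 and 12 were both named mural cells, and Cox4i2 was among the leading genes of cluster 10 only. The largest share of cluster 10 came from 7 d (43.5%) and that of cluster 12 from 28 d (24.3%). The part of this mix in the class levels was not tested. Endothelial cells had 29.8, 49.1, 6.82 and 20.1 CPM over control and 7, 14 and 28 d, and keratinocytes 3.0 or less. In fibroblasts Cox4i2 was at 8.71, 9.48, 12.1, 35.6 and 13.5 CPM, a ratio of 4.09 (3.30 to 5.04) at 28 d from 126 UMIs. Of the fibroblast clusters, cluster 7 had 160 CPM at 28 d against 126 in control, and it held 13.8% of fibroblasts at 28 d against 4.72% in control. The ubiquitous form Cox4i1 was at 1556, 1604, 1490, 1272 and 1622 CPM in mural cells, a narrower range than that of Cox4i2.

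**Figure D5:**
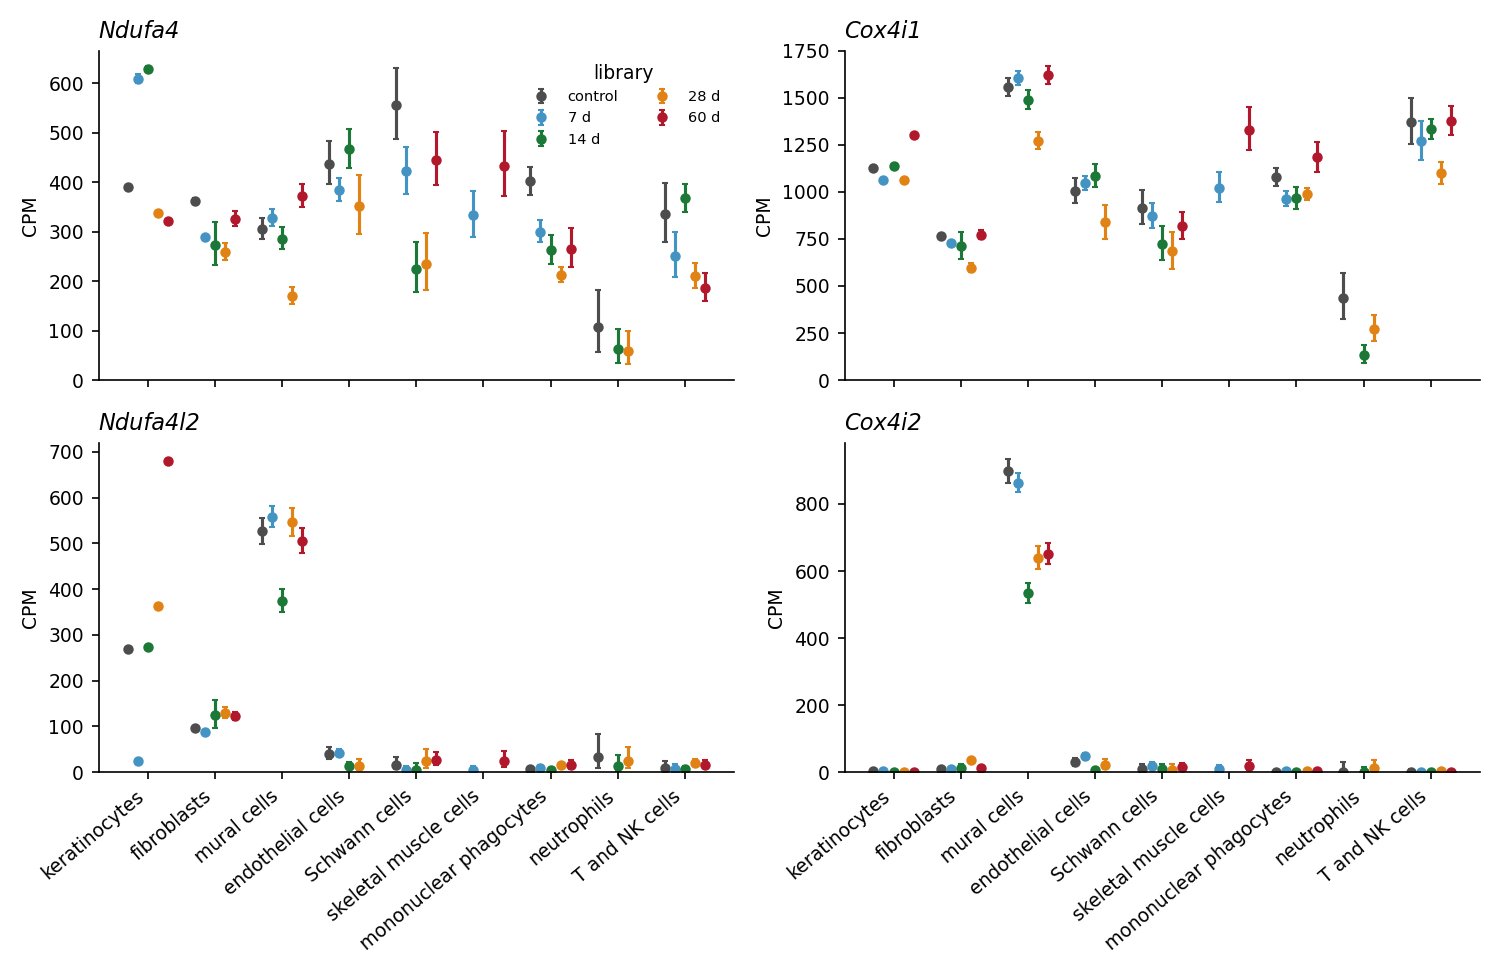
Levels of the paralog pairs Ndufa4 and Ndufa4l2, and Cox4i1 and Cox4i2, in CPM, by cell class over control and 7, 14, 28 and 60 d. Each point is 1 class of 1 library with its exact Poisson 95% interval, which covers counting error only. Ndufa4l2 in keratinocytes has its lowest point, 23.3 CPM, at 7 d, and Cox4i2 stands highest in mural cells, between 534 and 898 CPM.

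Cox6b2, known as the testis form of Cox6b1, was low in skin and lower after irradiation in keratinocytes. Over control and 7, 14, 28 and 60 d it was at 25.2, 6.37, 0.126, 0.982 and 2.39 CPM, with 7 UMIs at 14 d. In control it was at 31.9 CPM in basal and 1.49 CPM in suprabasal keratinocytes, and it was highest in cluster 6, with 44.7 CPM at 28 d and 22.3 at 60 d against 105 in control. That cluster held 1.19% of keratinocytes at 28 d and 1.82% at 60 d, against 15.5% in control. Mural cells had 37.8, 23.8, 16.7, 18.3 and 15.6 CPM. Cox6a2 and Cox8b, the muscle forms, were at 417 and 139 CPM in skeletal muscle cells at 60 d (70 cells) and at 14.4 and 12.8 CPM at 7 d (150 cells). They were detected in only 10% and 12.9% of the skeletal muscle cells at 60 d, and in 3.33% and 4% at 7 d. Few cells thus carried these levels. Outside this class Cox6a2 was at 6.10 CPM or less, and no control value is given for skeletal muscle, which had 47 cells there.

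Genes that work beside the complexes were read from lists, against shares of all genes in keratinocytes of 13.4%, 10.3% and 9.0% higher and 46.8%, 31.7% and 30.6% lower at 14, 28 and 60 d. Of 21 genes of glycolysis, 14 were at least 1.5-fold higher in keratinocytes at 14 d, 14 at 28 d and 11 at 60 d, and 2, 2 and 1 were lower, with median log2 ratios of 1.37, 0.79 and 0.65. At 7 d 4 were higher and 4 lower (18.3% and 10.5% of all genes). In fibroblasts 9 of 18 were higher and 2 lower at 28 d (23.8% and 11.2% of all genes), but at 60 d 3 of 19 were higher and 4 lower (26.6% and 12.1%), among the lower ones Gapdh, at 95.9 CPM at 60 d against 204 in control, and Slc16a1, which carries lactate, at 12.2 against 26.3. Pgk1, a glycolytic kinase, was at 1347 CPM at 14 d against 244 in control keratinocytes, and Slc16a3, which exports lactate, at 7.51 against 0.592. Of 43 measured assembly factors of the complexes, 10 were higher and 5 lower in keratinocytes at 14 d. Ndufaf2, an assembly factor of complex I, was at 52.2 CPM at 14 d against 17.8 in control, and Higd1a, a hypoxia-induced factor of complexes III and IV, at 844 against 328. Of 22 genes for transcription and processing of the mitochondrial genome, 3 were higher, close to the share of all genes, and 5 lower in keratinocytes at 14 d, and 8 of 17 were higher and 1 lower in fibroblasts at 60 d (26.6% and 12.1% of all genes). Lrpprc, which stabilises mitochondrial messages, was at 17.3 CPM at 28 d and 18.0 at 60 d against 8.96 in control fibroblasts. Of 17 genes of the tricarboxylic acid cycle in keratinocytes, 2 were higher and 1 lower at 14 d, 0 and 0 at 28 d, and 1 and 0 at 60 d. Slc25a4, which exchanges ATP for ADP across the inner membrane, was at 652 CPM at 28 d and 258 at 14 d against 261 in control keratinocytes. Of the listed carriers and transporters measured in keratinocytes at 28 d, Slc25a4 had the highest ratio. Ucp2 had the lowest, at 21.8 CPM against 47.3 in control.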

How the data were processed

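The deposited values are raw UMI counts per barcode and gene, without normalization. For the work of the authors, the submitters' processing notes name Seurat 3.1.1, Cell Ranger 5.0.0, STAR and the build Rnor_6.0. The members, lists and pathway genes were chosen with earlier results of these data known. Cells needed 500 UMIs and 300 genes or more, with mitochondrial UMIs at 20% or less. Doublets were scored with Scrublet through scanpy 1.11.5. The library's own threshold worked only at 7 d, and its value of 0.232 was used in all libraries, removing 1.11% to 2.60% of barcodes, under the expected 6%, so doublets remain. Cells were gated on markers scored between the 10th and 95th percentiles, with a score of at least 0.15 and a margin of 0.1 over the next class. This scoring, unlike the markers, was set after the data were seen, so classes here may differ from those of the study. Leiden clusters (resolution 1.0, 3000 variable genes less any members, 40 components, 20 neighbours) served as an alternative and for descriptions within classes.

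Counts were summed per class (at least 50 cells) and library and given as CPM. A gene was measured at 25 or more expected UMIs in the smaller total, and called at 1.5-fold. A count of 0 was set to 3 counts in ratios. Libraries held 70073362 to 139566348 UMIs. Named genes are all mitochondrial members, the 2 most abundant nuclear members per complex in control, the 3 highest and 3 lowest ratios per class and library, the isoforms, and up to 2 genes from each end of a pathway list. Outside this rule, Gabpa and Nrf1 were named for the motifs. The members at or near 0 were named after their values were seen. Ratios and intervals were run on counts simulated with Poisson counting error alone. This checks the computation and cannot speak to the spread between animals or cells. Alternatives changed the mitochondrial limit, denominator, weighting of cells, depth minimum, doublets, gate, fold and minimum count. Software was Python 3.11.15, numpy 2.4.6, scipy 1.17.1, pandas 2.3.3 and matplotlib 3.10.9.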

Additional observations from a re-analysis of the deposited data

Results flagged for a closer look

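Cox5a, a subunit of complex IV, lay by value on opposite sides of control in the main classes in all 4 irradiated libraries. It was flagged by screening all members measured in both classes throughout for such opposite sides. The lowest keratinocyte log2 ratio, 0.027 at 28 d, was close to control. Its level was 337, 436, 474, 343 and 406 CPM in keratinocytes over control and 7, 14, 28 and 60 d, and in fibroblasts 253, 203, 176, 155 and 177 CPM. The median log2 ratio over the 4 irradiated libraries was 0.32 in keratinocytes and −0.52 in fibroblasts, a difference of 0.84. With 1 library per group the difference was not tested, and its cause was not tested.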

How the results depend on the processing

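No paired analysis was possible because each group has 1 library. Of the 32 counts of members, recomputed under every alternative, 300 values stayed within 1.5 times and 52 moved. Of 144 recomputed ratios of the mitochondrial or nuclear sum, 88 left the counting interval of the value given, 20 moved by over 0.1 on the log2 scale, and 11 changed sign, all of them among 5 ratios within 0.21 of 0 on the log2 scale. Among these, the mitochondrial sum of keratinocytes at 14 d, at −0.21, became 0.03 without the mitochondrial limit, 0.29 scaled to the median gene and 0.05 as a mean over cells. The mitochondrial sums at 28 d and 60 d stayed above control in 36 of 36 such values (0.48 to 0.89). Of the recomputed ratios of single members, 1925 stayed within their counting interval, 702 left it and 1 that was past 1.5-fold changed direction. In this paragraph h is higher and l is lower than control, and the cause of a changed count was not tested unless the setting is itself stricter. At 2-fold, mitochondrial counts became 0, 1 and 0 h (keratinocytes at 14, 28 and 60 d), 6 and 5 h (fibroblasts at 28 and 60 d), 1 l (keratinocytes at 14 d) and 0 and 0 l (fibroblasts at 28 and 60 d). Nuclear counts at 2-fold became 0, 6, 1 and 1 h in keratinocytes at 7, 14, 28 and 60 d, 2, 2 and 0 h in fibroblasts at 14, 28 and 60 d, 2 l in keratinocytes at 28 d, and 0, 1 and 0 l in fibroblasts at 14, 28 and 60 d. With at least 100 expected UMIs, nuclear counts became 2, 3 and 5 h and 1 l (14 d) in fibroblasts and 1 l in keratinocytes at 14 d. Scaled to the median gene, nuclear counts became 0, 61, 15 and 18 h in keratinocytes, with 2 l at 28 d, and in fibroblasts 3 h at 28 d, 1 h at 60 d, 18 l at 28 d and 6 l at 60 d. Mitochondrial counts under that scaling became 2 h and 1 l at 14 d and 9 h at 28 d in keratinocytes and 6 h at 60 d in fibroblasts. As a mean over cells, nuclear counts became 5 h and 3 l at 28 d and 6 h at 60 d in keratinocytes, and in fibroblasts 1 h and 1 l at 7 d, 6 l at 14 d, and 4 h and 2 l at 60 d, and mitochondrial ones 1 l in keratinocytes at 14 d. Without the mitochondrial limit 1 mitochondrial member was lower in keratinocytes at 14 d. With mitochondrial UMIs out of the denominator 5 nuclear members were higher in keratinocytes at 60 d. With Leiden clusters 1 was lower in fibroblasts at 7 d. With the stricter gate 3 were higher at 28 d and 5 and 2 lower at 14 d and 60 d in fibroblasts, and Cox4i2 in fibroblasts at 60 d, that 1 member, turned to a log2 ratio of −0.10. Within cluster 2, chosen after seeing the data, the fibroblast mitochondrial sums turned to log2 ratios of −0.0932 at 28 d and −0.0923 at 60 d. Depth limits fibroblasts at 14 d most, with 578027 UMIs in 80 cells and 68 of 85 nuclear members measured.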
